A study of Mus musculus with 6 samples.

Results

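Expression of 8 genes that restrain signalling from the T cell receptor was examined in induced T (iT) cells that carry CD4 alone (CD4 single-positive, CD4SP) or CD8 alone (CD8SP). The genes were the E3 ubiquitin ligases Cblb, Cbl, Itch, Nedd4 and Rnf128, the ligase adaptor Ndfip1, and the diacylglycerol kinases Dgka and Dgkz. They were taken by name, with earlier results of these data known, and are 8 of the 23420 rows of the expression table. One of them, Nedd4, passed the call for a difference, with 2.62 ± 0.565 TPM in CD4SP cells and 8.90 ± 0.844 TPM in their CD8SP counterparts (SD, n = 3 each), where TPM is transcript abundance per unit length, scaled to one total per library. Ndfip1 was higher in CD4SP iT cells by a little under the 2-fold required, and Dgka was the most abundant of the 8 genes in every library.

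Polyadenylated RNA was sequenced from 3 libraries of CD4SP and 3 libraries of CD8SP iT cells, each made from 1000 cells sorted from spleen. All of these cells derived from C57BL/6 embryonic stem cells (CD45.2) that carried a Runx1-p2a-Hoxa9 cassette in the Rosa26 locus under a doxycycline-inducible promoter (iR9 cells), and both populations therefore carry the cassette. Blood progenitors made from them in culture were injected into irradiated B-NDG mice aged 8 to 10 weeks (CD45.1), an immunodeficient NOD strain with the Prkdc scid and Il2rg mutations that makes no T, B or NK cells of its own. The cells were sorted at week 5 after transplantation. Doxycycline was used in culture, the transplants are described as made without it, and the labels tell the populations apart by sorted subset alone. Each library is described as a biological replicate, but the animal behind it is not given in the labels, so the p-values measure the spread between these 6 libraries. TPM keeps no read depth, so the depth behind each value is unknown.

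A T cell that meets antigen without costimulation can enter anergy, a lasting state of weak response, and the products of these genes are among the brakes that set it. Cbl-b and c-Cbl are RING ligases that attach ubiquitin to signalling proteins near the receptor. Itch and Nedd4 are HECT ligases that are held inactive until adaptors such as Ndfip1 bind them, and GRAIL, the product of Rnf128, is a membrane-bound RING ligase first described in anergic CD4 T cells. Diacylglycerol kinases alpha and zeta convert diacylglycerol to phosphatidic acid and thereby limit the activation of Ras through RasGRP1 and of protein kinase C.

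The sorting markers matched the labels. Genes that mark T cells (Cd3e, Cd3d, Cd3g, Cd2 and Lck) summed to 4484 to 4661 TPM in CD4SP and 3773 to 4250 TPM in CD8SP. The summed TPM of Cd4 and Zbtb7b was 315 to 370 in CD4SP and 1.71 to 3.29 in CD8SP libraries, and that of Cd8a and Cd8b1 was 24.9 to 38.9 and 3236 to 3562. Of the genes that mark other cells, Ms4a1 and Pax5 of B cells, S100a8 and S100a9 of myeloid cells and Ncr1 of NK cells were listed at 0 in all 6 libraries, while other members of those marker lists were not, as given at the end. CD4SP replicate 2 stood apart from its group, with a median absolute log2 difference of 0.313 and 0.297 from replicates 1 and 3, against 0.170 between those. In CD8SP, replicates 1 and 2 differed by 0.0750, against 0.198 and 0.207 from replicate 3. Ribosomal protein genes took 24.1% to 28.7% of TPM in CD4SP and 32.1% to 35.9% in CD8SP libraries, and the median difference over the 10476 genes tested was 0.28 toward CD4SP on the log2(TPM + 1) scale. Differences are given on that scale as CD4SP minus CD8SP, and where useful relative to this median. A call required a limma adjusted p under 0.05 together with a difference of over 2-fold.

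The gene on which the comparison turned, Nedd4, has 2 annotated starts with a promoter sequence in RefSeq (GRCm38.p6), and both are shown because the data say that its transcripts differ but not which start they came from. Each run is the 250 bases before a start on the plus strand, written 5′ to 3′ in lower case, at chr9:72662081-72662330 and chr9:72693048-72693297. Capitals mark matches on either strand to the AP-1 motif TGANTCA or the NFAT core GGAAA.
Nedd4 start 1: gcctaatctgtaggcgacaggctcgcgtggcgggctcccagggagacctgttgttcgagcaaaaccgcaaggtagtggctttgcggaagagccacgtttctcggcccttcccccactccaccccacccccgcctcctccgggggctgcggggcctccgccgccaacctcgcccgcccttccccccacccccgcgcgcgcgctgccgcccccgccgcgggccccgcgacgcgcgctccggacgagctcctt
Nedd4 start 2: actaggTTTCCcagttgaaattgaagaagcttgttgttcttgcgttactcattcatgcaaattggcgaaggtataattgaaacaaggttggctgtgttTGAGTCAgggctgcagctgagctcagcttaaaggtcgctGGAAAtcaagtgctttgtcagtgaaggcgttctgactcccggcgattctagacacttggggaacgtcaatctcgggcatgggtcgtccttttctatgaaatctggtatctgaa

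The window of start 1 was 74% G and C and held neither motif. The window of start 2 was 46% G and C, with TGAGTCA beginning 152 bases before the start and NFAT cores at 244 and 113 bases before it. The same search was run for FOXO (TGTTTAC), EGR (GCGTGGGCG) and RUNX (TGTGGT), on both strands, over 11 windows of 6 of the 8 genes. Ndfip1 was left out of this search, and no window was available for Itch. AP-1 letters were in 1 of the 11 windows, that of Nedd4 start 2, and in 6.73% of all 32526 mouse windows of this length. NFAT core letters were in 8 of the 11 and in 55.7% of all windows, so these short letters are common. FOXO, EGR and RUNX letters were in none of the 11, against 3.17%, 0.541% and 14.0% of all windows. No match in the Nedd4 windows overlapped another.

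The CBL ligases were examined first. Cblb (chromosome 16, 52031225 to 52208048, plus strand, protein coding; all gene positions are GRCm38, GENCODE M21) was at 11.8, 12.8 and 22.6 TPM in replicates 1 to 3 of CD4SP and at 13.8, 15.3 and 14.9 TPM in CD8SP replicates 1 to 3. CD4SP replicate 3 was the highest and the other 2 CD4SP libraries were the lowest, so the groups overlapped. The log2 difference was 0.04 (SE 0.249, 95% interval -0.53 to 0.61, limma adjusted p 0.921). It turned to -0.24 without CD4SP replicate 3, and to -0.25 and -0.30 under median-of-ratios and quantile scaling, so no direction is given for Cblb.

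Cbl (chromosome 9, 44142976 to 44234049, minus strand, protein coding) was at 5.55, 1.13 and 5.43 TPM in the CD4SP libraries and at 2.38, 2.59 and 2.23 TPM in those of CD8SP. CD4SP replicates 1 and 3 lay above every CD8SP library and CD4SP replicate 2 below every one, so this library alone made the groups overlap. The log2 difference was 0.40 (SE 0.431, limma adjusted p 0.532) with all libraries and 0.93 (limma adjusted p 0.0200) without CD4SP replicate 2, which is short of 2-fold in both fits. It was 0.12 and 0.14 without CD4SP replicate 1 or 3, and 0.16 and 0.05 under median-of-ratios and quantile scaling. Cblb made up 80.2% ± 11.96 of the TPM of CBL ligases in CD4SP and 85.9% ± 0.943 in CD8SP iT cells (SD, n = 3 each), and the third member, Cblc, was listed at 0 in all libraries. Within libraries, the log2 ratio of Cblb to Cbl differed by -0.36 between populations, with an exact two-sided permutation p of 0.7 (0.875 adjusted over the 5 ratios tested here). Short stretches of the Cbl transcript, 230 to 238 nt long, are at least 95% identical to 12 annotated genes that have no row in the table, so the sharing of reads with them is uncertain.

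Of the HECT ligases, Nedd4 passed the test and Itch did not. Nedd4 (chromosome 9, 72662346 to 72749852, plus strand, protein coding), the founding member of its family, was at 2.98, 1.97 and 2.90 TPM in the CD4SP libraries and at 8.45, 8.38 and 9.87 TPM in those of CD8SP. All 3 CD8SP libraries were far above all 3 CD4SP libraries, and within each population the values were close. The log2 difference was -1.46 (SE 0.227, 95% interval -1.98 to -0.94, limma adjusted p 0.00361), or 2.75-fold higher in CD8SP on this scale and 3.398-fold as a ratio of mean TPM. Against the median of all tested genes the difference was -1.75. It was called under each of the 16 alternative settings, with differences between -1.81 and -1.32 and adjusted p between 0.000897 and 0.0195.

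Itch (chromosome 2, 155133509 to 155226855, plus strand, protein coding), whose loss in mice causes inflammatory disease with a type 2 helper bias, was at 15.4, 12.9 and 17.2 TPM in the CD4SP libraries and at 10.8, 9.46 and 10.1 TPM in those of CD8SP. The groups did not overlap, and CD4SP replicate 2 lay nearest to the CD8SP range. Between populations the log2 difference was 0.53 (SE 0.185, 95% interval 0.11 to 0.95, limma adjusted p 0.0746), so the test was not passed. Without CD4SP replicate 2 it was 0.64 (limma adjusted p 0.0256), still under 2-fold. It was 0.25 relative to the median of all tested genes, and 0.25 and 0.18 under median-of-ratios and quantile scaling (limma adjusted p 0.331 and 0.489). A stretch of 559 nt in the Itch transcript is 95.9% identical to the annotated gene Gm16223, which has no row in the table.

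Itch and Nedd4 were also set against each other within each library, since the scaling of a library cancels in a ratio of TPM. The TPM of Itch was 5.15, 6.54 and 5.93 times that of Nedd4 in CD4SP libraries, and 1.27, 1.13 and 1.03 times in CD8SP libraries. Nedd4 transcripts were thus nearly as abundant as those of Itch in CD8SP iT cells and far fewer in CD4SP iT cells. The log2 ratio of (TPM + 1), in which the scaling cancels only in part at such low values, differed by 1.99, and by 2.32 with a pseudocount of 0.1. For the former, the test gave an exact two-sided permutation p of 0.1, the smallest that 3 libraries against 3 can give (0.25 adjusted over the 5 ratios). In bulk libraries such as these, fewer cells that express a gene and less of its RNA per cell cannot be told apart.

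**Figure D1:**
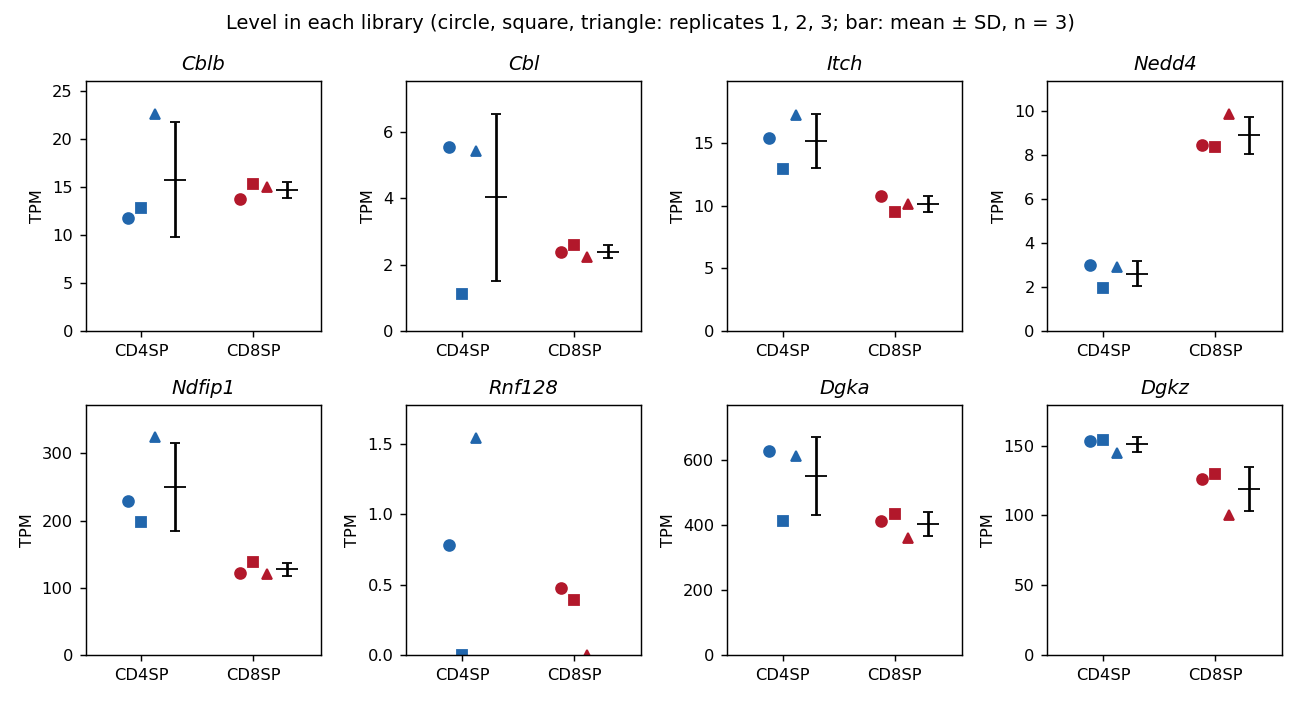
TPM of the 8 genes by population, one panel per gene with its own linear axis from 0, with a circle, square and triangle for replicates 1 to 3 and a black bar for the mean ± SD (n = 3; none for Rnf128, which was listed at 0 in 2 libraries). Nedd4 is the gene whose CD8SP points lie above its CD4SP points, at 8.38 to 9.87 TPM against 1.97 to 2.98 TPM.

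The remaining members of the Nedd4 family were read for comparison. The table holds 9 such ligases, whose TPM summed to 125 ± 20.5 in CD4SP and 93.1 ± 6.07 in CD8SP iT cells (SD, n = 3 each). Nedd4 was 2.08% ± 0.121 of that sum in CD4SP and 9.62% ± 1.51 in CD8SP iT cells, while Itch was 12.2% ± 0.906 and 10.9% ± 1.20. Wwp2 and Smurf2 were the most abundant family members in both populations, at 37.1% ± 0.420 and 35.3% ± 1.45 of the sum in CD4SP and 35.4% ± 0.846 and 28.0% ± 1.13 in CD8SP. Nedd4l, the closest paralog of Nedd4, was at 1.49, 0.227 and 1.58 TPM in the CD4SP libraries and at 2.07, 2.18 and 2.15 TPM in those of CD8SP. Its CD8SP values were also all above its CD4SP values, with a log2 difference of -0.65 (limma adjusted p 0.203) that did not pass the test. Smurf2 differed the other way, at 49.8, 34.0 and 49.0 TPM in the CD4SP libraries and at 25.5, 29.1 and 23.8 TPM in those of CD8SP, and passed the adjusted p but not 2-fold (log2 difference 0.72, limma adjusted p 0.0288). Hecw2 was listed at 0 in all libraries and Hecw1 in all but CD4SP replicate 3.

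Ndfip1 (chromosome 18, 38410396 to 38465303, plus strand, protein coding), a membrane adaptor that recruits and activates Itch and Nedd4, was at 229, 198 and 324 TPM in the CD4SP libraries and at 122, 139 and 121 TPM in those of CD8SP. Every CD4SP library lay above every CD8SP library, with CD4SP replicate 3 the highest. Between populations the log2 difference was 0.94 (SE 0.181, 95% interval 0.53 to 1.36, limma adjusted p 0.00876), which is 1.92-fold, so the adjusted p passed and the 2-fold requirement did not. Without CD4SP replicate 2 the difference was 1.09 and without CD8SP replicate 2 it was 1.01, and the gene was then called. Relative to the median of all tested genes the difference was 0.66, and it was 0.64 and 0.74 under median-of-ratios and quantile scaling (limma adjusted p 0.0230 and 0.0184).

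The second adaptor, Ndfip2, was at 54.5, 46.9 and 54.2 TPM in the CD4SP libraries and at 36.8, 33.6 and 30.4 TPM in those of CD8SP, again without overlap (log2 difference 0.61, limma adjusted p 0.0206). Ndfip1 was 82.4% ± 2.79 of the TPM of both adaptors in CD4SP and 79.1% ± 1.97 in CD8SP iT cells. The TPM of Ndfip1 was 14.9, 15.4 and 18.8 times that of Itch in CD4SP libraries and 11.4, 14.7 and 11.9 times in CD8SP libraries. These ratios did not overlap, but CD8SP replicate 2 came close to CD4SP replicate 1, and the log2 ratio differed by 0.41 (exact two-sided permutation p 0.1, the smallest possible, 0.25 adjusted). In both populations the transcripts of Ndfip1 thus outnumbered those of Itch.

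Rnf128 (chromosome X, 139563316 to 139673145, plus strand, protein coding) had the lowest mean TPM of the 8 genes in both populations. It was at 0.779 and 1.54 TPM in CD4SP replicates 1 and 3 and listed at 0 in replicate 2, and in CD8SP it was at 0.472 and 0.386 TPM in replicates 1 and 2 and listed at 0 in replicate 3. Only CD4SP replicate 3 reached 1 TPM, so the gene did not pass the filter on low values, and the groups overlapped. Fitted without that filter, its log2 difference was 0.38 (95% interval -0.44 to 1.20, limma adjusted p 0.484). Its rank by mean TPM was 10929 of 23420 in CD4SP and 11213 in CD8SP, where 9818 of the rows were listed at 0 in all libraries. With the depth unknown, an absence of the transcript cannot be read from the zeros.

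Dgka (chromosome 10, 128720134 to 128744855, minus strand, protein coding), the calcium-activated kinase that is abundant in resting T cells, was at 626, 411 and 611 TPM in the CD4SP libraries and at 413, 433 and 360 TPM in those of CD8SP. CD4SP replicates 1 and 3 were above every CD8SP library, while CD4SP replicate 2 was within the CD8SP range. Between populations the log2 difference was 0.43 (SE 0.172, 95% interval 0.03 to 0.82, limma adjusted p 0.110). Without CD4SP replicate 2 it was 0.62 (limma adjusted p 0.00810), and with library weights, which count an aberrant library less, it was 0.50 (limma adjusted p 0.00907). Relative to the median of all tested genes the difference was 0.14, and it was 0.12 and 0.31 under median-of-ratios and quantile scaling (limma adjusted p 0.547 and 0.280) and 0.32 to 0.48 with any other library left out. None of these fits reached 2-fold. The exons of Dgka share 105 nt with Pmel on the opposite strand, which was at 8.07 TPM or less, and whether the counting used strand is not given in the sources used here.

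Dgkz (chromosome 2, 91932824 to 91975864, minus strand, protein coding) was at 154, 154 and 145 TPM in the CD4SP libraries and at 126, 129 and 101 TPM in those of CD8SP. The groups did not overlap, and CD8SP replicate 3 was the lowest. Between populations the log2 difference was 0.35 (SE 0.132, limma adjusted p 0.0931), of which 0.07 was beyond the median of all tested genes. A stretch of 225 nt of Dgkz is 100% identical to Gm9821, which overlaps its exons on the opposite strand and has no row in the table.

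The proportion of the kinases was read within libraries. The TPM of Dgka was 4.07, 2.67 and 4.21 times that of Dgkz in CD4SP libraries and 3.26, 3.35 and 3.58 times in CD8SP libraries. CD4SP replicate 2 gave the lowest ratio and the other 2 CD4SP libraries the highest, and the log2 ratio differed by 0.08 between populations (exact two-sided permutation p 0.9). Of the TPM of all 10 diacylglycerol kinases, Dgka held 71.4% ± 4.05 in CD4SP and 69.7% ± 0.427 in CD8SP, and Dgkz held 20.2% ± 4.15 and 20.5% ± 1.07 (SD, n = 3 each). Dgkd came next with 7.33% ± 0.353 and 8.80% ± 1.16, while Dgkb and Dgkk were listed at 0 in all libraries and the other 5 kinases did not exceed 8.88 TPM in any library. The family as a whole summed to 764 ± 129 TPM in CD4SP and 577 ± 50.7 TPM in CD8SP.

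**Figure D2:**
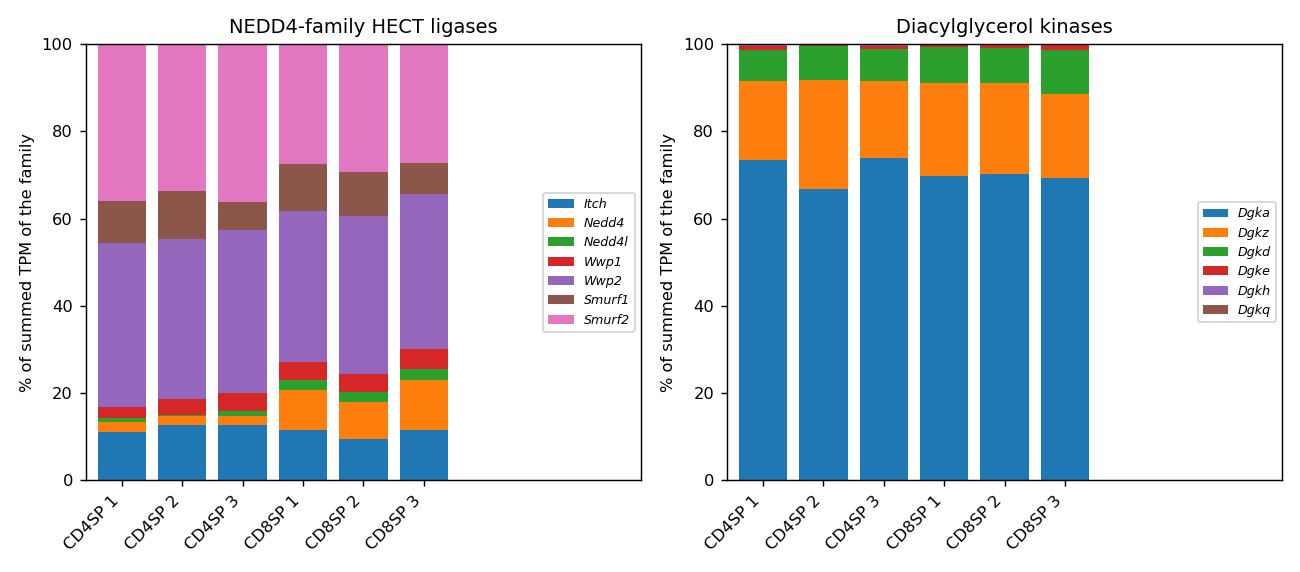
Stacked bars of the share of each gene in the summed TPM of its family, in percent, for each of the 6 libraries, leaving out genes under 1 TPM throughout. The band of Nedd4 was 1.94% to 2.16% of its family in CD4SP and 8.43% to 11.3% in CD8SP libraries, while that of Dgka among diacylglycerol kinases was 66.7% to 74.0% over all 6.

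The order of levels, which TPM allows because it is per length, was similar in both populations. In CD4SP iT cells it ran Dgka, Ndfip1, Dgkz, Cblb, Itch, Cbl, Nedd4 and Rnf128. The library ranges of Cblb and Itch overlapped, as did those of Cbl and Nedd4, so these neighbours are not ordered beyond their spread. In CD8SP iT cells the order was Dgka, Ndfip1, Dgkz, Cblb, Itch, Nedd4, Cbl and Rnf128, with overlap between Ndfip1 and Dgkz and between Itch and Nedd4. By mean TPM, Dgka ranked 246 of 23420 rows in CD4SP and 303 in CD8SP, Ndfip1 561 and 957, and Dgkz 935 and 1015. The ligases lay much lower, with Cblb at 5836 and 5331, Itch at 5944 and 6291, and Cbl at 8844 and 9096. Nedd4 had the largest difference in rank, from rank 9499 in CD4SP to 6556 in CD8SP.

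Of the 8 genes, 7 were tested, with 0 calls toward CD4SP and 1 toward CD8SP. Over all tested genes 9.73% passed, made up of 7.92% toward CD4SP and 1.80% toward CD8SP. By the adjusted p alone, Ndfip1 passed toward CD4SP and Nedd4 toward CD8SP, against 20.8% of all tested genes, or 17.6% and 3.23% by direction. The populations did not overlap in 3 of the 7 with CD4SP above (Itch, Ndfip1 and Dgkz), near the 36.6% of all tested genes, and in 1 with CD8SP above (Nedd4), where 6.61% of all tested genes did so. In either direction this held for 4 of the 7 and for 43.2% of all tested genes. The difference was positive for 6 of the 7, and for 74.8% of all tested genes. The median difference was 0.40 over the 7 genes and 0.28 over all tested genes.

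**Figure D3:**
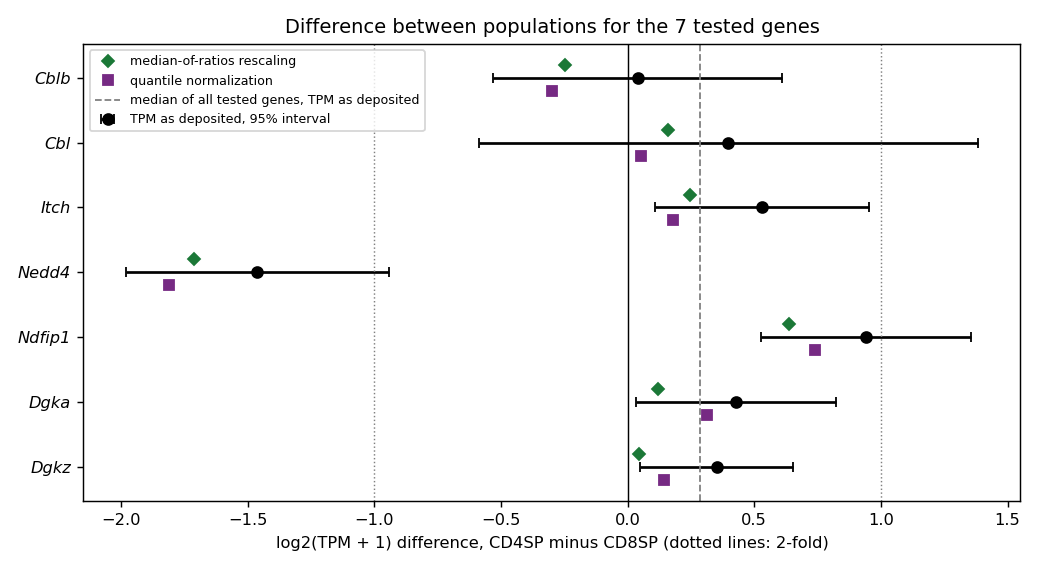
Difference in log2(TPM + 1), CD4SP minus CD8SP, for the 7 tested genes, as black points with 95% intervals from limma, beside green diamonds and purple squares for the same difference after median-of-ratios rescaling and quantile normalization, a dashed line at the median of all tested genes, 0.28, and dotted lines at 2-fold. The interval of Nedd4, -1.98 to -0.94, lies wholly below 0 and those of Itch, Ndfip1, Dgka and Dgkz lie above it. Those of Cblb, -0.53 to 0.61, and Cbl, -0.59 to 1.38, span it. The intervals are not adjusted for the number of genes tested. Of those above 0, only that of Ndfip1 lies wholly above the dashed line.

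**Figure D4:**
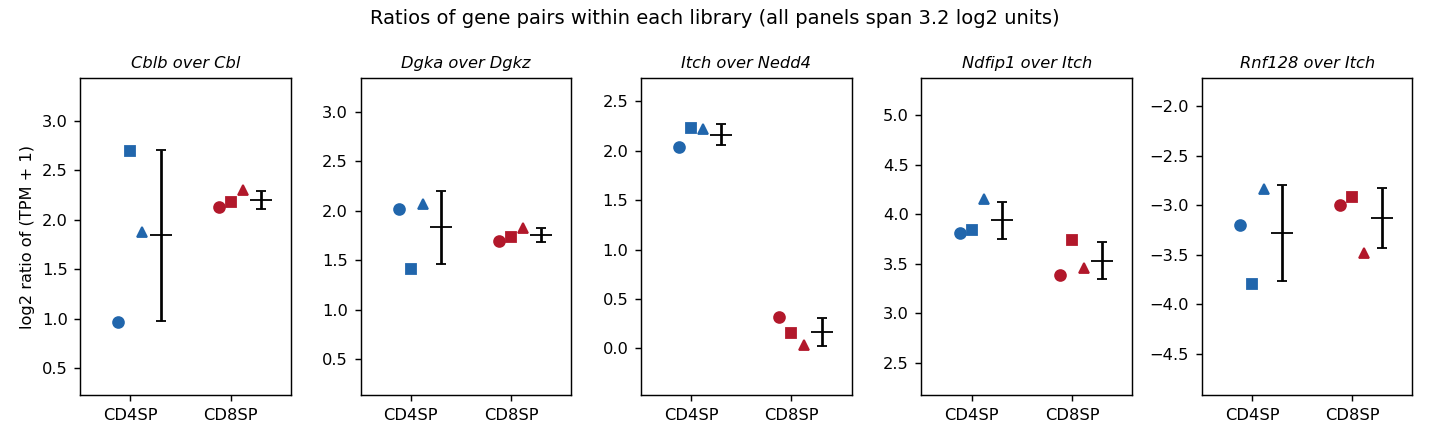
Log2 ratio of (TPM + 1) between pairs of genes within each library, with a circle, square and triangle for replicates 1 to 3 and a black bar for the mean ± SD (n = 3). All panels span the same number of log2 units. The ratio of Itch to Nedd4 was 2.04 to 2.23 in CD4SP and 0.04 to 0.32 in CD8SP libraries, and those of Cblb to Cbl and Dgka to Dgkz overlapped between the populations.

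The genes whose pattern over the 6 libraries was most like that of Nedd4, among 8247 with a mean of at least 5 TPM, were Rras2 and Fgf13. Rras2, which encodes a small GTPase of the Ras family, was at 34.7, 26.7 and 35.7 TPM in the CD4SP libraries and at 65.6, 64.7 and 72.1 TPM in those of CD8SP (Pearson r 0.998 with Nedd4). Fgf13, which encodes an intracellular fibroblast growth factor homologue, was at 0.690 and 0.855 TPM in CD4SP replicates 1 and 3, listed at 0 in replicate 2, and at 19.6, 17.8 and 21.1 TPM in those of CD8SP (r 0.996). These correlations are descriptions over 6 libraries in 2 groups that the populations set apart.

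The other genes of these pathways were followed in 7 lists of 89 genes, of which 72 were tested. Calls toward CD4SP numbered 15, or 20.8% against 7.92% of all tested genes, and calls toward CD8SP 0. After median-of-ratios rescaling 10 list genes and 484 of all genes were called toward CD4SP, and after quantile normalization 9 and 444. The median difference was 0.44. None of the 9 tested partners of the CBL ligases was called (median 0.42), nor were any of the 6 tested relatives of Nedd4 and Ndfip1 (0.40) or the 2 tested kinases Dgkd and Dgke (0.28). Sla, Grb2 and Ubash3a among the CBL partners passed the adjusted p alone, with log2 differences of 0.73, 0.68 and 0.52 (limma adjusted p 0.0136, 0.0160 and 0.0309).

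Among 8 tested relatives and deubiquitinases of GRAIL, only Rnf149 was called, at 152, 126 and 179 TPM in the CD4SP libraries and at 73.4, 70.8 and 71.9 TPM in those of CD8SP (log2 difference 1.05, limma adjusted p 0.00227). It is a membrane RING ligase of the same structural family as GRAIL, and its values did not overlap between populations. The call was lost without CD4SP replicate 3 and under either rescaling, where the list had 0 calls, and the list had 2 without CD4SP replicate 1. The difference of Rnf149 was 0.77 relative to the median of all tested genes. The list median was 0.02, and 7.92% of all tested genes were called toward CD4SP.

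Of 12 tested genes that make or answer to diacylglycerol, Prkcd and Rasgrp1 were called, where 7.92% of all tested genes were called toward CD4SP. Prkcd, which encodes protein kinase C delta, was at 39.0, 37.2 and 40.1 TPM in the CD4SP libraries and at 15.8, 17.5 and 15.7 TPM in those of CD8SP (log2 difference 1.20, limma adjusted p 0.00109). Rasgrp1, which encodes the diacylglycerol-dependent activator of Ras in T cells, was at 121, 93.5 and 126 TPM in the CD4SP libraries and at 60.0, 57.5 and 47.2 TPM in those of CD8SP (log2 difference 1.03, limma adjusted p 0.00378). Neither gene overlapped between populations, and both were higher in CD4SP. Prkcq, which encodes the protein kinase C isoform of the T cell synapse, was at 84.2, 78.2 and 80.7 TPM in the CD4SP libraries and at 89.9, 81.8 and 89.1 TPM in those of CD8SP (log2 difference -0.10, limma adjusted p 0.567). Prkca, which encodes protein kinase C alpha, passed the adjusted p and fell short of 2-fold (log2 difference 0.98, limma adjusted p 0.00964). The list median was -0.08, below that of all tested genes. The list had 1 call without CD4SP replicate 3 or without CD8SP replicate 3, 4 without CD4SP replicate 2, and 0 under either rescaling.

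Of 18 tested substrates reported for these ligases, 5 were called, all higher in CD4SP, against 7.92% of all tested genes. Among them were Cd40lg, Cd81, Cd83 and Junb. Cd40lg, the ligand by which helper T cells activate B cells, was at 40.1, 53.4 and 43.1 TPM in CD4SP libraries, at 0.389 TPM in CD8SP replicate 2 and listed at 0 in the other 2. Cd81, a tetraspanin, was at 40.8, 35.4 and 43.7 TPM in CD4SP, listed at 0 in CD8SP replicate 1 and at 0.761 and 0.887 TPM in replicates 2 and 3. Cd83, a surface glycoprotein, was at 51.0, 35.6 and 54.6 TPM in the CD4SP libraries and at 3.54, 1.99 and 3.197 TPM in those of CD8SP. These 3 are substrates reported for GRAIL, the ligase whose own transcript did not exceed 1.54 TPM. All of these values are RNA levels, and a link between the ligase and these transcripts was not tested. Junb, a substrate of Itch, was at 393, 302 and 351 TPM in the CD4SP libraries and at 186, 165 and 132 TPM in those of CD8SP (log2 difference 1.12, limma adjusted p 0.00240). Junb was named after its values were seen. The list median was 0.65, and the count was 3 without CD4SP replicate 2 or 3, 3 with quantile normalization and 4 with median-of-ratios rescaling. Relative to the median of all tested genes the difference of Junb was 0.83, which is under 2-fold.

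Of 17 tested regulators linked to anergy, 7 were called, all higher in CD4SP, against 7.92% of all tested genes called in that direction. Those of largest difference were Izumo1r, which encodes folate receptor 4 (the row is named Folr4), Egr2, a transcription factor that drives Dgka in anergic cells, and Nr4a1, an orphan nuclear receptor induced by receptor signalling. Izumo1r was at 428, 485 and 438 TPM in the CD4SP libraries and at 38.1, 37.8 and 29.7 TPM in those of CD8SP (log2 difference 3.65, limma adjusted p 3.14e-06). Egr2 was at 9.17, 13.3 and 11.02 TPM in CD4SP, at 2.73 and 2.32 TPM in CD8SP replicates 1 and 2 and listed at 0 in replicate 3 (log2 difference 2.38, limma adjusted p 0.0104). Nr4a1 was at 36.6, 40.4 and 30.1 TPM in the CD4SP libraries and at 7.48, 6.09 and 6.26 TPM in those of CD8SP (log2 difference 2.26, limma adjusted p 0.000154). None of the 3 overlapped between populations. The list median was 0.85.

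**Figure D5:**
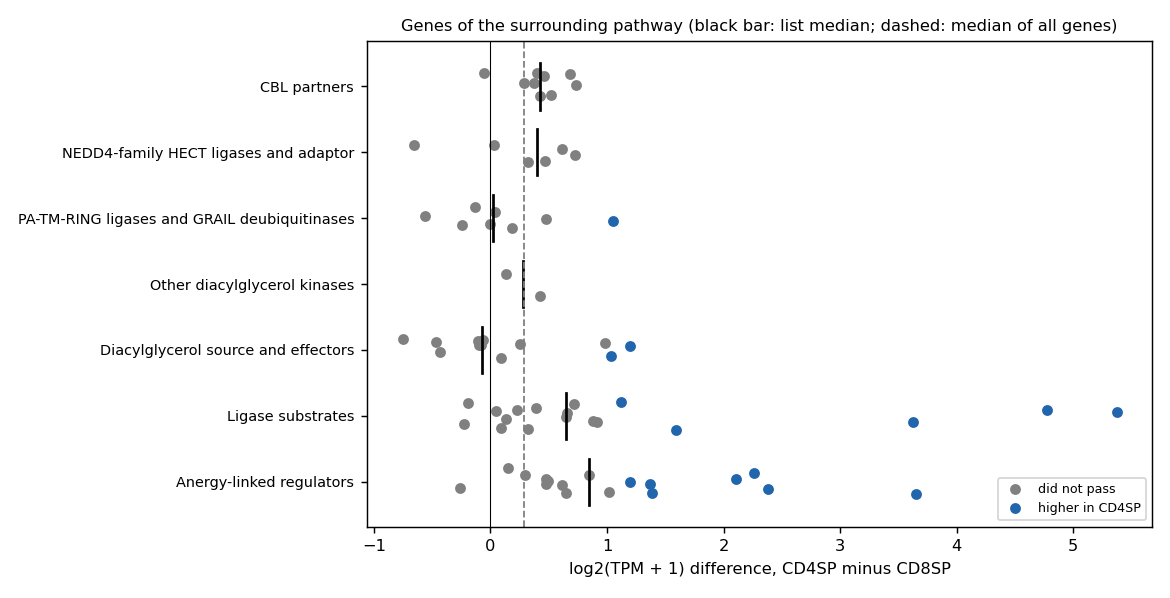
Difference in log2(TPM + 1), CD4SP minus CD8SP, of each tested gene in the 7 pathway lists, with called genes in blue, a black bar at each list median and a dashed line at the median of all tested genes, 0.28. Calls lie on the CD4SP side and fall in 4 of the 7 lists, with 7 among regulators linked to anergy and 5 among substrates.

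Markers of regulatory T cells moved with the populations. Their 10 genes summed to 2934 to 3339 TPM in CD4SP and 357 to 411 TPM in those of CD8SP. Of the 10, 9 were called higher in CD4SP, against 7.92% of all tested genes. Foxp3 was at 142, 6.56 and 167 TPM in replicates 1 to 3 of CD4SP and at 7.48, 7.48 and 10.05 TPM in those of CD8SP, so that CD4SP replicate 2, which gave the lowest CD4SP values of Cbl, Itch, Ndfip1, Nedd4 and Dgka, was also the lowest of all 6 for Foxp3. The other 9 markers in this library lay above all CD8SP libraries, among them Tnfrsf4 at 1157, Ctla4 at 814, Il2ra at 92.0 and Gpr83 at 27.9 TPM. Foxp3 was the 1 marker not called (log2 difference 2.61, limma adjusted p 0.1005). Nrp1 is in both this list and that of the anergy regulators. The 4 dendritic cell markers summed to 3.86 to 7.62 TPM in CD4SP and 21.0 to 22.7 TPM in those of CD8SP, and Itgax, at 0.946, 0.0821 and a listed 0 against 18.0, 17.2 and 18.1 TPM, was the 1 called. The B cell markers summed to 15.9 to 22.3 TPM in CD4SP and 21.3 to 24.5 TPM in those of CD8SP, the myeloid markers to 17.7 to 32.9 and 20.7 to 24.2, the NK markers to 89.7 to 97.7 and 76.0 to 87.1, and those of naive T cells to 477 to 635 and 641 to 741, while erythroid markers did not exceed 0.129 TPM. Within the myeloid list Lyz2 was called higher in CD4SP (log2 difference 1.68) and Cd68 higher in CD8SP (-2.41). Within the NK list, whose genes T cells can also express, Klrg1 was called higher in CD4SP (1.80), and Eomes (-2.37) and Klrb1c (-1.86) higher in CD8SP. Cd79b, the highest of the B cell markers at 10.9 to 21.6 TPM, was not called (limma adjusted p 0.121). The part of any of these lists in the differences above was not tested.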

How the data were processed

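The authors amplified cDNA from aliquots of 1000 sorted cells with a whole-transcriptome kit, sequenced transposase libraries, and used HISAT2 and StringTie with the mm10 genome, per the submitters' processing notes. They deposited expression as TPM, which divides reads by transcript length and scales each library to one total, so a class that takes a larger share of a library lowers all others. TPM summed to 997896 to 998100 per library, and 9971 to 10649 genes reached 1 TPM. Depth is unknown, so no counting interval or detection floor was computed.

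Tests ran on log2(TPM + 1), where changes of low genes come out too small. The 10476 genes that reached 1 TPM in 3 or more libraries entered a linear model in limma 3.58.1 (R 4.3.3; lmFit, eBayes with a mean-variance trend, population as the only term), with Benjamini-Hochberg adjustment over all of them. The fit was tested on simulated data. Ratios between genes were tested by exact permutation over the 20 label assignments, with 5 ratios adjusted together. Similar transcripts were searched with blastn 2.17.0 (at least 95% identity over at least 200 nt).

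The 8 genes, the pathway and marker lists (T cell, CD4, CD8, regulatory T, naive T, B, myeloid, dendritic, NK and erythroid) and the tests were chosen with earlier results of these data known. Named were the 8 genes, called list genes up to 3 per list and direction, family paralogs, and the 2 genes most correlated with each called gene. Other names were chosen after their values were seen. A single list gene is not reported here. Alternatives were median-of-ratios and quantile scaling, a pseudocount of 0.1, filters of 5 TPM or none, no trend, library weights, a replicate block, the adjusted p alone, each library left out, and, added after seeing the data, CD8SP replicates 1 and 2 averaged.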

Additional observations from a re-analysis of the deposited data

How the results depend on the processing

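Nedd4 kept its direction and its call under all 16 alternatives. Cblb had no stable direction, with a log2 difference of 0.04 that became -0.25 with median-of-ratios rescaling, -0.30 with quantile normalization and -0.24 to 0.21 with a library left out; it was below 0 without CD4SP replicate 3 or CD8SP replicate 1. Ndfip1, at 0.94 and short of 2-fold, was called with library weights (1.03) and by the adjusted p alone (0.94). Its difference was 0.64 with median-of-ratios rescaling and 0.74 with quantile normalization, and ranged from 0.74 to 1.09 with a library left out. The number of the 8 genes called was then 2 with library weights or the adjusted p alone and 1 to 2 with a library left out. Over all tested genes, 1019 were called, 2183 by the adjusted p alone and 752 to 1042 with a library left out. Of the calls, 81.5% were higher in CD4SP, against 61.4% after median-of-ratios rescaling (484 and 304 genes) and 57.1% after quantile normalization (444 and 333), and both rescalings brought the median of all genes to about 0. List genes called higher in CD4SP were 15, but 9 with quantile normalization, 27 by the adjusted p alone and 11 to 16 with a library left out. Those called higher in CD8SP were 0, but 1 with library weights and 0 to 1 with a library left out. The log2 ratio of Itch to Nedd4 differed by 2.32 with a pseudocount of 0.1 and by 1.93 to 2.07 with a library left out, and that of Rnf128 to Itch by -0.15, by 0.22 with that pseudocount and by -0.37 to 0.11. The ratio of Cblb to Cbl ranged from -0.78 to 0.083, turning without CD4SP replicate 1, and that of Dgka to Dgkz from -0.040 to 0.29, turning without CD4SP replicate 1 or 3. Where a cause is not given, it was not tested. Cbl could not be tested under the filter of 5 TPM.

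Replicate numbers are shared by both populations, and the labels do not say what they mark. Same-numbered libraries did not deviate together (correlations of 0.0515, -0.0168 and 0.0887 across genes), and they were not taken as pairs. With so few libraries, these correlations cannot exclude that same-numbered libraries came from one animal. With the replicate block, 997 genes were called, 1 of the 8 genes was called, the adjusted p was 0.00941 for Nedd4 and 0.0152 for Ndfip1, and no call among the 8 genes changed. Depth is unknown, which limits what the low values of Rnf128 can show.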
